A study of Nannochloropsis oceanica strain IMET1 with 6 samples.

Results

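Hi-C contacts of nitrogen-replete cells and of cells deprived of nitrogen for 2 days were compared bin pair by bin pair in Nannochloropsis oceanica strain IMET1, a unicellular marine alga that is grown for its oil. C0 cells (day 0) were taken in logarithmic growth from nitrogen-replete modified f/2 medium. N2 cells (day 2) came from the same kind of seed culture after washing and 2 days in nitrogen-free f/2 medium under continuous but dimmer light, so nitrogen supply, light and time in culture cannot be told apart. Each group had 2 libraries, which make 4 of the 6 libraries of the series, and the authors pooled them into 1 list of interactions within chromosomes (cis) and 1 list between chromosomes (trans). Bin pairs listed at C0 or N2 were keyed by the chromosome and 1-kb bin of both ends and split into C0 only, N2 only and shared, which gave 9962 of the 10432 bin pairs listed in any of the 3 groups of the series. With 1 pooled list per group no spread between samples could be had, so no difference between the groups was tested, and the 95% intervals given cover counting error only.

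In Hi-C, chromatin is cross-linked, cut and ligated, so that a read pair from 2 distant fragments records that they lay close together in a nucleus. Contacts fall steeply with distance along a chromosome, and contacts between chromosomes are rarer still. A significant interaction is therefore a bin pair with more contacts than the count expected at its distance. That count is corrected by a bias factor of each bin for how well the bin is recovered. Chromosome ends gather at the nuclear envelope or with one another in many eukaryotes. Nitrogen deprivation is a common way to make Nannochloropsis stop dividing and store triacylglycerol.

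Most bin pairs were listed in 1 group only when the same 2 bins were required. In cis, 2868 bin pairs (interval 2764 to 2975) were C0 only, 3454 (3340 to 3571) were N2 only and 1588 (1511 to 1668) were shared. The shared pairs made up 35.6% (34.2 to 37.1) of the 4456 cis pairs listed at C0 and 31.5% (30.2 to 32.8) of the 5042 listed at N2. Where a pair within 5 bins at both ends counted as shared, these shares were 70.9% and 64.4%. How often pairs placed at random would match so loosely was not computed, so these 2 shares do not measure how many contacts recurred. In trans, 534 pairs were C0 only, 1465 were N2 only and 53 were shared, which was 9.03% of the 587 listed at C0 and 3.49% of the 1518 listed at N2. The 5043 pairs listed at C0 were 0.00109% of the bin pairs the authors tested there, and the 6560 listed at N2 were 0.00142%, where listed means a q-value below 0.01 and a contact count above 2.

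Over all distances, shared cis pairs had the highest median contact count. The contact count is the number of valid read pairs that join 2 bins. C0 only pairs had a median of 40 contacts (5 to 193), and N2 only pairs a median of 35 (4 to 241). Shared pairs had a median of 62 at C0 (5 to 206) and 45 at N2 (4 to 354). Shared pairs were also the shortest. Up to 10 kb the N2 medians within a distance class were near each other. They were 52 contacts in shared and 51 in N2 only pairs up to 5 kb and 33.5 and 36 over 5 to 10 kb. Over 10 to 100 kb they were 25 and 19, and beyond 100 kb 6 and 8. The C0 medians stood higher in shared than in C0 only pairs, at 70 and 52 up to 5 kb and 44 and 35 over 5 to 10 kb. Over 10 to 100 kb they were 29 and 22, and beyond 100 kb 9 and 7. Trans counts were low throughout, with medians of 5 in C0 only pairs and 4 in N2 only pairs.

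The lists were not entered at the same count. The expected contacts of a pair were recovered from its deposited p-value and both bias factors. For average bins they were 22.6 at C0 and 14.3 at N2 at 2 kb, 8.69 and 4.65 at 10 kb, and 0.830 and 0.501 at 100 kb. The C0 expectation was thus 1.58 times that of N2 at 2 kb, 1.87 times at 10 kb and 1.66 times at 100 kb, and in trans it was 1.46 times (0.0426 against 0.0293). The libraries of N2 held 0.721 times the cis and 0.686 times the trans valid read pairs of C0. In cis the groups thus differed less in valid read pairs than in the expectations given. A pair of average bins had to reach 52 contacts at C0 and 39 at N2 to be listed at 2 kb, 29 and 20 at 10 kb, 10 and 8 at 100 kb, and 5 and 4 in trans. As a ratio to the expectation, the same entry stood lower at C0 than at N2, at 2.30 and 2.73 times at 2 kb and 12.0 and 16.0 times at 100 kb. A C0 only pair is therefore one that missed the N2 entry or had no usable bias factor there, not one without contacts at N2.

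**Figure D1:**
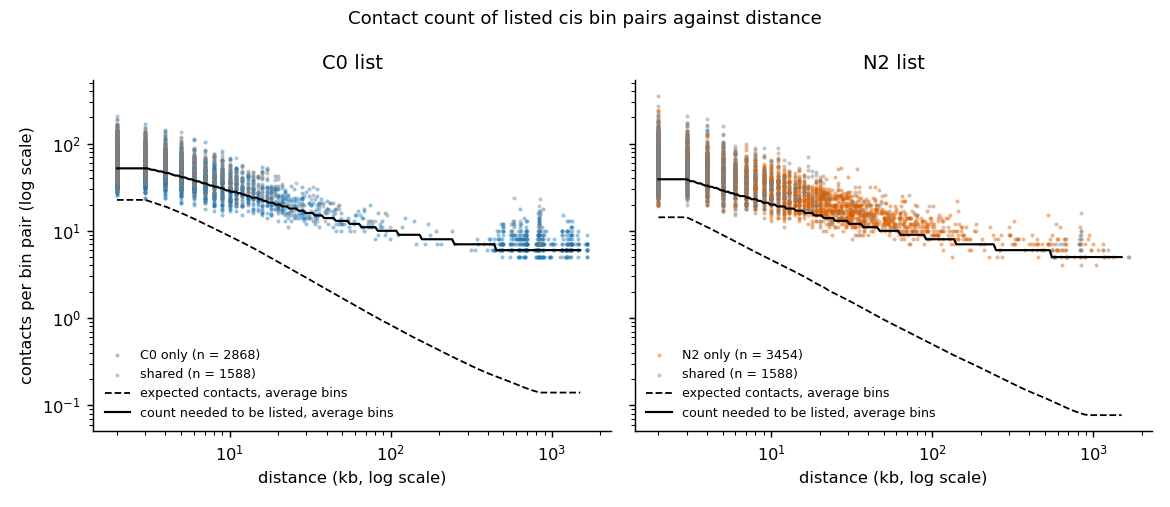
Contacts per listed cis bin pair against the distance between its bins, both on log scales, for the C0 list (left, C0 only in blue) and the N2 list (right, N2 only in orange), with shared pairs in grey. Dashed lines are the expected contacts and solid lines the count needed to be listed for bins with a bias factor of 1. The C0 panel shows a group of pairs at the longest distances that is thinner at N2, and the N2 panel is denser between 10 and 100 kb.

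Distance separated the sets. C0 only pairs had a median distance of 5 kb, N2 only pairs of 6 kb and shared pairs of 3 kb. Up to 5 kb, 1542 pairs were C0 only, 1632 were N2 only and 1185 were shared, or 1.06 N2 only pairs for each C0 only pair. Over 5 to 10 kb the sets held 498, 545 and 228 pairs, a ratio of 1.09. Over 10 to 100 kb they held 429, 1114 and 142 pairs, a ratio of 2.60. Beyond 100 kb the order turned, with 399 C0 only, 163 N2 only and 33 shared pairs, a ratio of 0.409. The class over 10 to 100 kb took 14.96% (13.7 to 16.3) of C0 only pairs and 32.3% (30.7 to 33.8) of N2 only pairs. The class beyond 100 kb took 13.9% (12.7 to 15.2) and 4.72% (4.04 to 5.48).

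**Figure D2:**
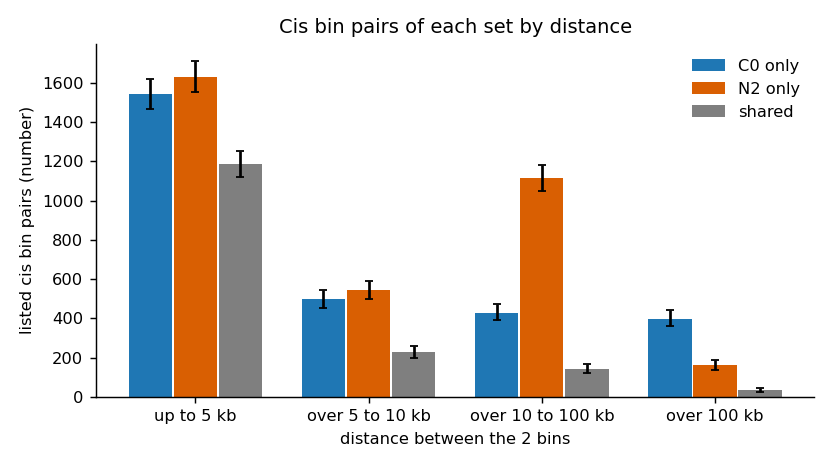
Number of listed cis bin pairs in each set and distance class, with exact Poisson 95% intervals. C0 only and N2 only pairs are near each other in number up to 10 kb, N2 only pairs lead over 10 to 100 kb (1114 against 429), and C0 only pairs lead beyond 100 kb (399 against 163).

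The shared part of the C0 list fell with distance, while that of the N2 list was lowest over 10 to 100 kb. Shared pairs were 43.5% of the C0 list and 42.1% of the N2 list up to 5 kb, and 31.4% and 29.5% over 5 to 10 kb. Over 10 to 100 kb they were 24.9% of the C0 list but 11.3% of the N2 list, and beyond 100 kb 7.64% of the C0 list and 16.8% of the N2 list. Bins 2 kb apart, the shortest distance listed, made up 47.6% of shared pairs, 25.1% of C0 only pairs and 27.6% of N2 only pairs. The lists gave 2 and 3 kb the same expected contacts, so pairs 2 kb apart had no expectation of their own. With the slope of longer distances continued to 2 and 3 kb, 1020 cis pairs were shared in place of 1588.

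Many long C0 only pairs lay at chromosome ends. A bin was taken as an end bin if it lay within 20 kb of either end of its chromosome, the right end being the highest position listed. Such bins cover 3.88% of the 31.0 Mb of the 30 chromosomes. Both bins were end bins in 19.1% (17.7 to 20.6) of C0 only cis pairs, in 2.29% (1.81 to 2.84) of N2 only pairs and in 7.87% (6.59 to 9.31) of shared pairs. Beyond 100 kb, where both bins at ends means that the 2 ends of a chromosome met, this held for 304 of 399 C0 only pairs (76.2%), 24 of 163 N2 only pairs (14.7%) and 30 of 33 shared pairs (90.9%). With ends of 10 kb the shares fell to 43.6% of C0 only and 6.75% of N2 only pairs. Of N2 only pairs beyond 100 kb, 127 (77.9%) had neither bin at an end, against 36 (9.02%) of C0 only pairs. Within 10 kb, both bins lay at an end in 11.5% of C0 only pairs and 2.34% of N2 only pairs, so the difference was not limited to long distances.

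Contacts between the 2 ends of a chromosome were listed on 26 chromosomes, and at C0 more often than at N2 on each of them. They numbered 334 pairs at C0 and 54 at N2, with medians of 7 and 6 contacts. With the C0 pairs thinned to N2 depth, as described next, N2 had more on 4 of the 26 chromosomes, each with at most 3 pairs at N2. Chromosome 20 held 48 at C0 and 12 at N2, chromosome 23 held 37 and 5, chromosome 21 held 25 and 8, and chromosome 30 held 24 and 1. Chromosome 7 held 25 at C0, where the pairs summed to 198 contacts, and none at N2. Chromosome 28 held 14 and 7.

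The C0 pairs were then read at the depth of N2. For each C0 pair the exact probability of reaching the N2 entry was computed when each contact is kept with the ratio of N2 to C0 expected contacts at that distance, and these probabilities were summed. As a second reading, contacts were kept with the ratio of valid read pairs of the libraries. Only pairs listed at C0 could be thinned, and pairs just below the C0 entry could also reach that of N2. The sums are therefore called floors, on the condition that each pair could enter the N2 list with its C0 bias factors. The 4456 cis pairs of C0 came to 1657 (SD of the thinning 24.6) by expected contacts and 2395 by valid read pairs, against 5042 listed at N2. The 334 pairs between both ends of a chromosome came to 138 and 191, against 54 (41 to 70) at N2. The 340 pairs within 1 chromosome end came to 155 and 208, against 150 (127 to 176). For interior pairs, with neither bin at an end, the floors lay below the N2 numbers. Over 10 to 100 kb, 538 at C0 came to 102 and 216, against 1216 at N2. Beyond 100 kb, 37 came to 7.45 and 11.8, against 128. Up to 5 kb, 2452 came to 1076 and 1420, against 2689. On that condition, pairs between both ends were more numerous at C0 than at N2 even as a floor. A floor below the N2 number, as in the interior classes, gives no order. The thinning kept the bias factors of C0 and took every pair as able to enter the N2 list. Of the 304 C0 only pairs between both ends, 8 had a bin without a usable factor at N2. In 181 others a bin had no factor known there. The part of such bins in the difference was not tested.

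**Figure D3:**
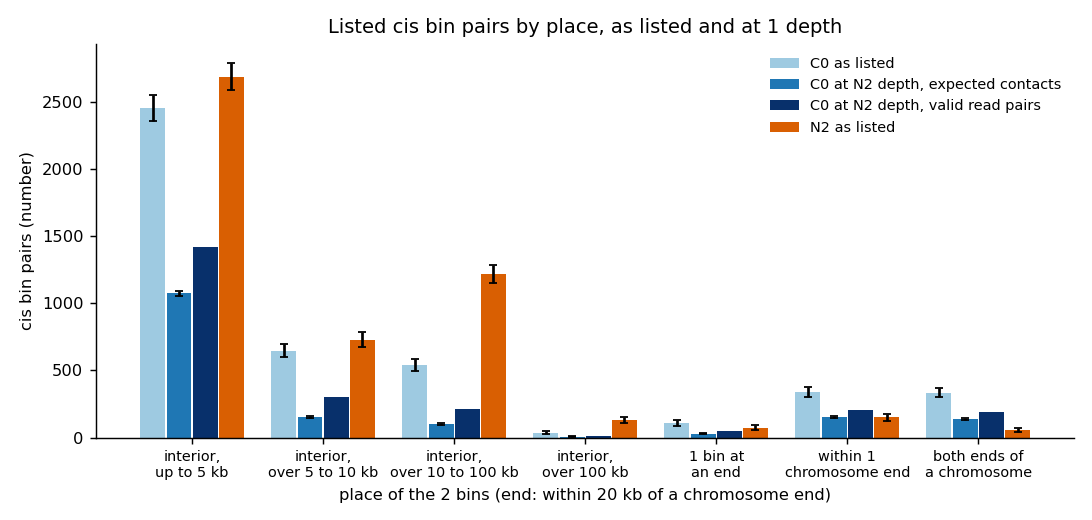
Listed cis bin pairs by the place of their bins: C0 as listed (light blue), C0 pairs thinned to N2 depth by expected contacts (blue) and by valid read pairs (dark blue), and N2 as listed (orange). The thinned numbers are floors on the condition that each pair could enter the N2 list with its C0 bias factors. Error bars are exact Poisson 95% intervals for listed numbers and the SD of the thinning for the blue bars. For both ends of a chromosome N2 (54) is below either floor of C0 (138 and 191).

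Chromosomes differed in the balance of the sets. N2 only pairs outnumbered C0 only pairs on 24 of 30 chromosomes, with a median ratio of 1.18. The ratio was highest on chromosome 2 (2.06, interval 1.62 to 2.62), chromosome 14 (2.00, 1.47 to 2.74) and chromosome 24 (1.88, 1.27 to 2.81). It was lowest on chromosome 30 (0.589, 0.416 to 0.829), chromosome 20 (0.654, 0.495 to 0.861) and chromosome 23 (0.761, 0.565 to 1.02). The low values moved with the ends. With interior pairs only, the ratio was above 1 on all 30 chromosomes, from 1.07 on chromosome 4 to 3.25 on chromosome 28, and chromosomes 30, 20 and 23 stood at 1.15, 1.15 and 1.46. The interior interval included 1 on 13 of the 30 chromosomes, chromosomes 30 and 20 among them.

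**Figure D4:**
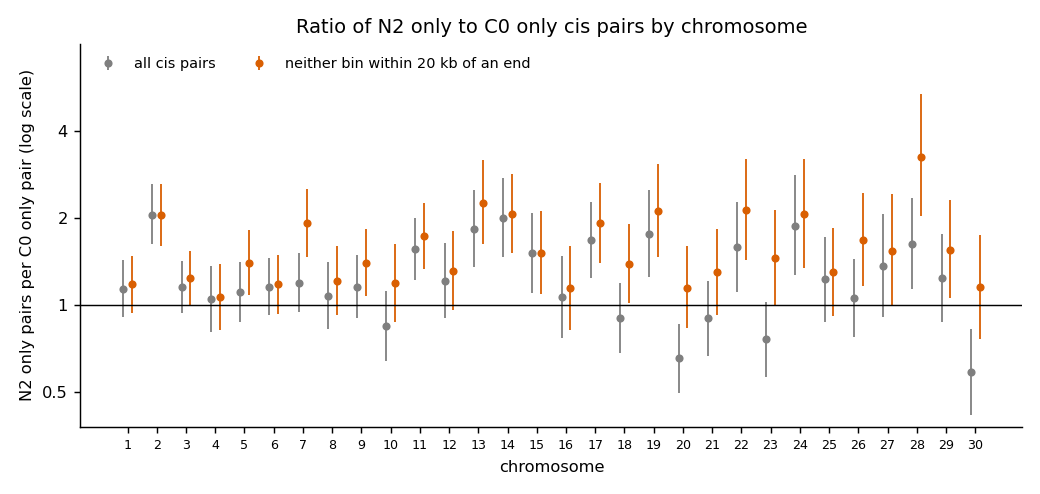
Number of N2 only pairs per C0 only pair on each chromosome (log scale), for all cis pairs (grey) and for pairs with neither bin within 20 kb of an end (orange), with exact 95% intervals of the ratio of 2 counts. Grey points fall below 1 on 6 chromosomes, and all orange points lie above 1.

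Shared pairs had fewer contacts at N2 but more relative to expectation. They had to pass both entries, and the N2 entry was the higher relative to expectation, so the ratios below are a description of pairs chosen that way. The ratio of observed over expected contacts at N2 to that at C0 had a median of 1.44 over the 1588 shared cis pairs (quartiles 1.24 and 1.70) and was above 1 in 1530. It reached 1.5 in 677 pairs (42.6%), and fell to the inverse of 1.5 or below in 1 pair (0.063%). Its exact interval lay above 1 for 639 pairs and below 1 for 0. The raw contacts went the other way: 345 pairs had more contacts at N2, 1215 had fewer and 28 the same. With contacts scaled only by valid read pairs, the median ratio was 1.04 and 273 pairs reached 1.5. Relative to expectation, the median was 1.42 up to 5 kb, 1.499 over 5 to 10 kb and 1.65 over 10 to 100 kb. The entry at N2 relative to expectation also stood further above that at C0 at 10 kb (4.30 against 3.34 times) than at 2 kb. It was 1.201 for the 30 shared pairs between both ends of a chromosome and 1.23 for the 95 within 1 end. In trans the median was 1.46 over 53 pairs, 25 (47.2%) reached 1.5 and 0 (0%) fell as far. The trans interval lay above 1 for 5 pairs, and raw contacts were higher at N2 in 24 pairs, lower in 19 and the same in 10.

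**Figure D5:**
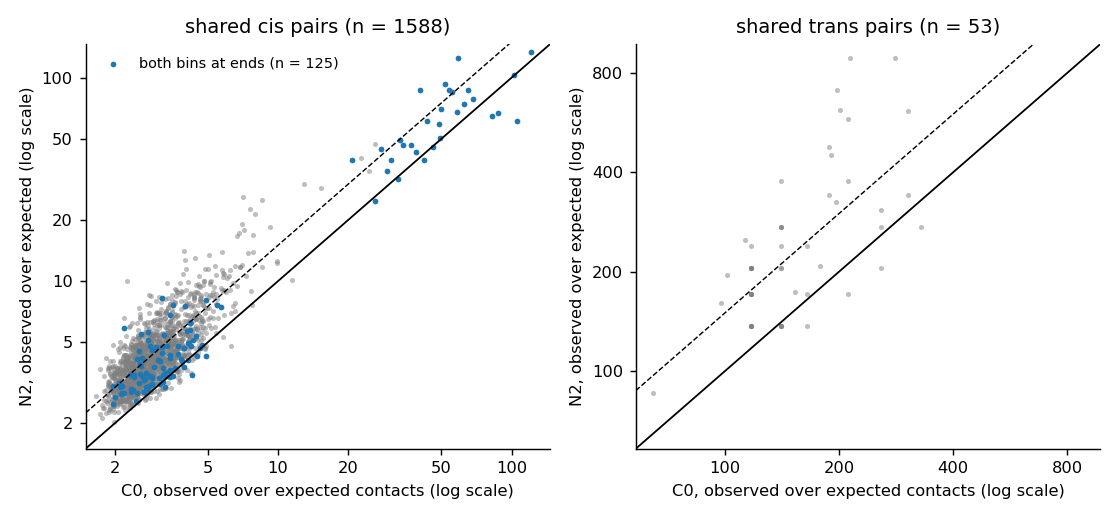
Observed over expected contacts of each shared pair at C0 (horizontal) and N2 (vertical), on log scales, for cis pairs (left, pairs of 2 end bins in blue) and trans pairs (right). The solid line marks equal ratios and the dashed line 1.5 times higher at N2. Of cis pairs, 1530 of 1588 lie above the solid line and 677 on or above the dashed line.

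A few shared pairs changed far more than the median. On chromosome 4, bins 621001-622000 and 623001-624000 had 57 contacts at C0 and 157 at N2, or 2.26 and 10.04 times the expectation, a ratio of 4.45 (3.26 to 6.13). On chromosome 21, bins 294001-295000 and 343001-344000, 49 kb apart, had 14 and 25 contacts and a ratio of 3.63 (1.82 to 7.56). On chromosome 28, bins 222001-223000 and 230001-231000 had 40 and 84 contacts and a ratio of 3.57 (2.42 to 5.35). In all 3 pairs the N2 count was the higher even without any scaling. The highest count of either list was at N2, between bins 622001-623000 and 624001-625000 of chromosome 22, with 188 contacts at C0 and 354 at N2. These rankings took pairs with at least 10 contacts in both groups. At their other end, bins 20001-21000 and 27001-28000 of chromosome 4 had 36 and 18 contacts, and the ratio of 0.769 had an interval of 0.411 to 1.39, which includes 1. Without that limit the lowest ratio was 0.580, in a pair between both ends of a chromosome.

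C0 only pairs with the most contacts were short pairs that could not be listed at N2. No cis pair of either list had a bin without a usable bias factor. On chromosome 26, bins 367001-368000 and 369001-370000 had 193 contacts at C0, 2.98 times (2.58 to 3.43) the expectation. On chromosome 1, bins 89001-90000 and 91001-92000 had 168 contacts, 2.46 times the expectation. On chromosome 5, bins 621001-622000 and 624001-625000 had 168 contacts, 2.93 times. In each of these pairs 1 bin had a factor between 1.65 and 1.96 at C0 and the mark of no usable factor at N2, so their absence from the N2 list gives no bound on their contacts. Among pairs beyond 100 kb the highest counts were 18, between 4001-5000 and 889001-890000 of chromosome 18 (93.7 times the expectation, 55.5 to 148) and between 6001-7000 and 641001-642000 of chromosome 26 (29.3 times), both of which join the ends of their chromosome. The pair of chromosome 26 also had a bin without a usable factor at N2.

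The N2 only pairs with the most contacts were 2 kb apart. Bins 282001-283000 and 284001-285000 of chromosome 7 had 241 contacts at N2, 5.44 times (4.77 to 6.17) the expectation, and bins 263001-264000 and 265001-266000 of chromosome 17 had 237, 5.56 times. Over 10 to 100 kb, bins 295001-296000 and 306001-307000 of chromosome 21 had 68 contacts at N2, 5.14 times the expectation. Beyond 100 kb, bins 838001-839000 and 981001-982000 of chromosome 15 had 22 contacts, 25.5 times (16.0 to 38.6). The pair of chromosome 15 had the fewest contacts of these and stood furthest above its expectation.

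A pair missing from a list still has an upper limit there. Where both bins had a known factor in the other group, the highest count that would not have been listed is a ceiling. Of the 2868 C0 only cis pairs, 636 had such a ceiling at N2, 2141 had a bin with no factor known from the N2 lists and 91 had a bin without a usable factor. Their observed over expected contacts at C0 passed the N2 ceiling in 85 of 636 pairs, and the whole interval did so in 6, of which 5 joined both ends of a chromosome. Of the 115 pairs of that kind with a ceiling, 41 were above it. The highest was the pair of chromosome 18 with 18 contacts, at 93.7 times the expectation at C0 and at most 47.0 times at N2 (4 contacts). For the pairs that did not pass their ceiling, the C0 value relative to expectation could also have been present at N2 without being listed.

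Of the 3454 N2 only cis pairs, 919 had a ceiling at C0 and 2509 had a bin with no factor known there. They passed the ceiling in 918 of 919 cases, and with their whole interval in 401. The first count follows largely from the lower entry at C0 relative to expectation. Both counts are of pairs chosen by their listing, so both are a description. Between bins 292001-293000 and 343001-344000 of chromosome 21 there were 21 contacts at N2, 33.7 times (20.9 to 51.5) the expectation, against at most 8.71 times at C0 (10 contacts). Between 23001-24000 and 70001-71000 of chromosome 13 there were 29 contacts at N2, 24.9 times (16.7 to 35.7), against at most 6.45 times at C0. Bin 343001-344000 of chromosome 21 recurred: it was also part of the shared pair with 294001-295000 and of the N2 only pair with 432001-433000, which had 7 contacts.

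Runs of neighbouring bin pairs made up only of end bins were found mostly among C0 only pairs. Pairs of 1 set whose ends lay within 2 bins of each other were joined. C0 only pairs had 34 runs of 5 or more pairs, and 25 of these held only pairs of 2 end bins. Such runs could join both ends of a chromosome or lie within 1 end. N2 only pairs had 10 runs of 5 or more pairs, of which 0 held only end bins, and shared pairs had 15, of which 3 did. The largest C0 only run held 26 pairs between 1-6000 and 825001-843000 of chromosome 20, with 256 contacts in all. The next held 20 pairs between 5001-14000 and 695001-704000 of chromosome 23 (163 contacts) and 15 pairs between 1-4000 and 1323001-1330000 of chromosome 7 (128 contacts). These runs joined both ends of a chromosome. Another, of 14 pairs between 828001-835000 and 832001-843000 of chromosome 20, lay within 1 end, over 3 to 10 kb (789 contacts). The largest N2 only run held 7 pairs between 888001-899000 and 894001-901000 of chromosome 2, with 284 contacts over 2 to 8 kb. Single pairs made up 63.8% of the C0 only set, 72.1% of the N2 only set and 64.0% of the shared set.

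Single bins gained or lost many cis partners. Of 7061 bins in the cis lists, 39 had 10 or more cis partners at C0 and 91 at N2. From C0 to N2, 24 bins gained 10 or more partners and 9 lost 10 or more. Bin 550001-551000 of chromosome 22 had 6 partners at C0 and 25 at N2, at 2 to 448 kb and with 6 to 81 contacts each. Bin 326001-327000 of chromosome 13 went from 1 to 16 partners, and bin 518001-519000 of chromosome 27 from 2 to 16. Their bias factors were higher at N2 than at C0, by 0.592 to 0.701, 1.42 to 1.91 and 1.53 to 1.71. Of the bins that lost most, 1542001-1543000 of chromosome 3 had 13 partners at C0 and none at N2, where it had no usable factor. Bin 832001-833000 of chromosome 20 went from 14 to 3 partners and bin 6001-7000 of chromosome 23 from 13 to 2, both at chromosome ends and with usable factors at C0 and N2. Bins 831001-832000 of chromosome 6 and 156001-157000 of chromosome 25 lost as many, each going from 11 partners to none. These 2 lay 562 and 156 kb from an end and had no factor known at N2.

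Bias factors moved with the sets, and their part in the sets was not tested. The factor is 1 for an average bin, the lists hold values of 0.50 to 2.00, and a mark of -1 stands for no usable factor. Of the 5176 bins in the C0 lists 200 had none (3.86%, 3.36 to 4.43), and of the 5979 bins in the N2 lists 759 had none (12.7%, 11.9 to 13.6). Of the 3045 bins in both groups' lists, 2823 had a factor in both, with a median ratio of N2 to C0 of 0.928, while 70 had one at C0 only and 21 at N2 only. The product of both factors of a pair had a median of 0.961 in C0 only cis pairs (at C0) and 1.47 in N2 only pairs (at N2). For shared pairs it was 1.21 at C0 and 1.07 at N2. One value was held by many bins: 22 bins at C0 had a factor of 0.955 and 62 bins at N2 had 0.963, on 16 and 28 chromosomes, where no other value was held by more than 2 bins. These bins took part in 44 cis pairs at C0 (median 3.19 times the expectation, against 3.05 for other pairs) and in 173 at N2 (5.89 times, against 3.899). Among the pairs named above, 222001-223000 of chromosome 28 and 70001-71000 of chromosome 13 were such bins.

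In trans the lists differed mostly in pairs without usable factors. These are tested as if both bins were average. They made up 198 of 587 trans pairs at C0 (33.7%, 29.9 to 37.7) and 1262 of 1518 at N2 (83.1%, 81.2 to 85.0). With usable factors only, 376 trans pairs were C0 only, 243 N2 only and 13 shared, so the order of the sets turned. Thinned to N2 depth, the 587 pairs of C0 came to a floor of 240 (SD of the thinning 10.7), against 1518 at N2. The 220 pairs of C0 with usable factors between ends of 2 chromosomes came to 67.5, against 39 (28 to 53) at N2. The 35 such pairs without usable factors came to 20.1, against 65 (50 to 83), so the order there was the other way. The 148 interior pairs with usable factors came to 45.8, against 190 (164 to 219), and the 156 interior pairs without came to 95.1, against 1121.

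Chromosome ends also stood out among C0 only trans pairs. Both bins lay at ends in 46.6% (42.3 to 51.0) of C0 only trans pairs, in 6.69% (5.46 to 8.09) of N2 only pairs and in 6 of 53 shared pairs. With usable factors the shares were 58.2% of 376 C0 only pairs and 15.6% of 243 N2 only pairs. The bins that lost most trans partners were end bins: 1240001-1241000 of chromosome 10 went from 9 partners to none, and 1-1000 of chromosome 21 from 8 to none, both with usable factors in each group. The bins that gained most had no usable factor, such as 1037001-1038000 of chromosome 3, with 10 partners at C0 and 33 at N2, and 212001-213000 of chromosome 1, with 0 and 23.

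Trans pairs among chromosomes 3, 9 and 15 were frequent in all sets. Chromosomes 3 and 15 held 70 of 534 C0 only pairs (13.1%), 126 of 1465 N2 only pairs (8.601%) and 23 of 53 shared pairs (43.4%). Chromosomes 9 and 15 followed with 53, 116 and 10. Of the 40 shared pairs without usable factors, 34 lay among these 3 chromosomes, and of the 13 with usable factors 1 did. The shared trans pair with the most contacts had usable factors and lay elsewhere: 487001-488000 of chromosome 5 and 1083001-1084000 of chromosome 7 had 10 contacts at C0 and 37 at N2, 197 and 711 times the expectation, a ratio of 3.61 (1.76 to 8.13). Bins 103001-104000 of chromosome 24 and 333001-334000 of chromosome 30 had 8 and 28 contacts. The N2 only trans pair with the most contacts, 25, joined 1445001-1446000 of chromosome 1 and 4001-5000 of chromosome 7. The first of these bins had no usable factor at C0.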

How the data were processed

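Hi-C was measured in 2 C0 and 2 N2 libraries, grouped by the labels. By the study's methods, reads were filtered with Trimmomatic and mapped with ICE to the IMET1 genome of the NanDeSyn database, both replicates of a group were merged, and Fit-Hi-C was run on the merged contacts. The submitters' processing notes also list HiC-Pro and edgeR. The deposited lists hold raw contact counts made by the authors per pair of 1-kb bins, not scaled for depth. The deposited p-values and q-values were written by Fit-Hi-C, and the deposited score of each bin is its bias factor. The methods describe 10-kb bins, while the deposited lists used here are in 1-kb bins. The authors' lists of pairs shared by C0 and N2 hold the same 1588 cis and 53 trans pairs as computed here.

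Expected contacts were recovered as the Poisson mean that gives the deposited p-value for a count at least as high as the one listed. Divided by the product of factors (1 where none was usable), these fell within 0.01% of 1 value per distance. Intervals are exact Poisson, Clopper-Pearson or conditional binomial at 95%. Depth was read from the expected contacts and, as an alternative, from the ratio of valid read pairs that the study's sequencing statistics give for the libraries. Named pairs were those with the most contacts, the highest ratios or the largest changes in each set and distance class. Coordinates are the authors', counted from 1. Genes and sequences were not used here. The alternatives were q-value and count thresholds, the matching of bins, depth ratios, the expectation below 4 kb, end width and leaving out chromosomes or bins. The members and lists were chosen with earlier results of these data known. The functions were tested on simulated data. Python 3.11.15, numpy 2.4.6, scipy 1.17.1 and pandas 2.3.3 were used.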

Additional observations from a re-analysis of the deposited data

How the results depend on the processing

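No paired analysis was possible because the authors pooled the replicates of each group into 1 list, and for the same reason no replicate could be left out. Of 157 values recomputed under an alternative, 123 stayed close and 34 moved. Many of those that stayed close were shares with 1 chromosome left out in turn, none of which moved. Crossing a ratio of 1 was checked for the median shared ratios only, and none of these crossed it. A number of pairs was taken as close within 1.5 times, and a share or median within its 95% interval. The order of C0 only and N2 only trans pairs turned with usable factors only. The cause of each move was not tested beyond what the alternative itself removes. A q-value below 0.001 left 1892 C0 only cis pairs and 296 C0 only and 396 N2 only trans pairs. At least 5 contacts left 386 N2 only trans pairs, and usable factors only left 243 N2 only and 13 shared trans pairs. Cis distances of at least 10 kb held 900 C0 only, 1369 N2 only and 205 shared pairs. Where shared meant within 5 bins, cis held 1297 C0 only, 1796 N2 only and 3159 shared pairs of the C0 list, and 102 trans pairs were shared. With the pairs listed at C0 thinned to N2 depth, 846 C0 only and 811 shared cis pairs and 204 C0 only trans pairs were left. By valid read pairs these were 1343, 1052 and 203. All are floors on the condition that each pair could enter the N2 list with its C0 bias factors. With the expectation at 2 and 3 kb continued along its slope, in place of the flat value of the lists, 1020 cis pairs were shared and the median shared ratio was 1.40. With contacts scaled by valid read pairs alone, that median was 1.04 and 273 pairs reached 1.5. With ends of 10 kb, both bins were end bins in 43.6% of C0 only and 6.75% of N2 only pairs beyond 100 kb, and in 10.7% and 0.926% of all their cis pairs; with ends of 50 kb the values were 90.7% of C0 only pairs beyond 100 kb, 25.1% of all C0 only and 5.88% of all N2 only pairs. Leaving out each chromosome in turn gave 12.7% to 14.6% for C0 only pairs beyond 100 kb and 32.0% to 32.7% for N2 only pairs over 10 to 100 kb. Chosen after the data were seen, leaving out the bins of the common factor gave 2851, 3308 and 1561 cis pairs, and leaving out pairs of 2 end bins gave 2319, 3375 and 1463 (C0 only, N2 only, shared). Trans pairs of 1 group only had medians of 5 contacts (C0 only) and 4 (N2 only), the counts that average bins needed to be listed in trans.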
